A study of Mus musculus with 12 samples.

Results

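The small leucine-rich proteoglycans are secreted matrix proteins built on a core of leucine-rich repeats. The 9 genes described here, Dcn, Bgn, Aspn, Lum, Fmod, Omd, Prelp, Ogn and Podn, were taken by symbol from a table of transcript abundances in mouse myocardium, the muscle of the heart. They are 9 of the 33641 gene symbols in the table and hold 30 of its 105129 transcript rows, which were summed to genes. All 9 reached 1 TPM (the deposited unit, a share of a library of 1000000 that is scaled for transcript length) in at least 3 of the 12 libraries, as did 13158 genes in all. They were listed by name, with no threshold on a measured value.

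The 12 libraries came from male wild-type C57BL/6 mice, 1 mouse each, in 4 groups of 3. A mouse had either a sham operation or surgery that produced a myocardial infarction (MI), and then received vehicle or the synthetic glucocorticoid prednisone. According to the labels, prednisone was given by intraperitoneal injection at 1 mg/kg in PBS, from a stock in DMSO, to mice of about 10 weeks. Doses fell at lights-on each week for 6 weeks from week 2 after the operation, and each heart was sampled 24 hours after the last dose, at a labelled age of about 16 weeks. No allele or transgene separates the groups, and the make-up of the vehicle and the region of myocardium sampled are not given in the sources used here.

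Members of the family bind collagen fibrils through the leucine-rich repeats and set fibril diameter and spacing, and several also bind growth factors and cell-surface receptors. Class I members such as decorin and biglycan carry chondroitin or dermatan sulfate chains, and class II members such as lumican and fibromodulin carry keratan sulfate or tyrosine sulfate. In the heart they are made mainly by fibroblasts and belong to the collagen scar that replaces lost muscle after infarction.

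The genes sit in clusters. On mouse build GRCm38, Prelp (chr1:133910304-133921414, minus strand) and Fmod (chr1:134037254-134048277, plus strand) lie within 151 kb with Optc. Dcn (chr10:97479609-97518143) and Lum (chr10:97565128-97572703) lie within 203 kb with Kera and Epyc, all on the plus strand. Aspn (chr13:49544443-49567565), Omd (chr13:49582462-49592822) and Ogn (chr13:49608046-49624501) follow Ecm2 on the plus strand within 120 kb. Bgn (chrX:73483602-73495933, plus strand) and Podn (chr4:108014791-108096445, minus strand) stand alone. All 9 are annotated as protein-coding.

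RefSeq start sites on GRCm38.p6 were matched for 7 of the 9 genes, the exceptions being Dcn and Lum. The 250 bases before the start are shown for the 3 genes with the largest differences after infarction (Bgn, Fmod, Prelp) and for Ogn and Omd, which hold matches to a motif searched, 5′ to 3′ on the strand of the gene, with matches in capitals.
Bgn (chrX:73483351-73483600, plus strand): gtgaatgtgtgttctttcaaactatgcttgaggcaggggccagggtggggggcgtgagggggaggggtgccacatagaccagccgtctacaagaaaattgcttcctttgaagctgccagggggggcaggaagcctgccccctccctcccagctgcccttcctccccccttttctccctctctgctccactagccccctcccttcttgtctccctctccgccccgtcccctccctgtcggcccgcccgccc
Fmod (chr1:134037004-134037253, plus strand): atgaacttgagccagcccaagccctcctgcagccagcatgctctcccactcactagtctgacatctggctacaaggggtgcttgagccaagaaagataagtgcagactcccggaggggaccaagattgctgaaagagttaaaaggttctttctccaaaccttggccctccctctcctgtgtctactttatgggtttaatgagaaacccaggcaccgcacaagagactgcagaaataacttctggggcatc
Prelp (chr1:133921402-133921651, minus strand): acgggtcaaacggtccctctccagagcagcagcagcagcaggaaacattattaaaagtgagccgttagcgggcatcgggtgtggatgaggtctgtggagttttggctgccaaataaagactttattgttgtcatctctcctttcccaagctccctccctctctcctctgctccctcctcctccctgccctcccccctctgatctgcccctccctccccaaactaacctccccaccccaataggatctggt
Ogn (chr13:49607765-49608014, plus strand): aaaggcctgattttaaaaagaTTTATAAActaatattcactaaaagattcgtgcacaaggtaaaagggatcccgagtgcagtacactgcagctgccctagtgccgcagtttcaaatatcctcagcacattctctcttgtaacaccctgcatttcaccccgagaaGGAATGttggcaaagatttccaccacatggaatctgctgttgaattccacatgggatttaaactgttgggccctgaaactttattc
Omd (chr13:49582212-49582461, plus strand): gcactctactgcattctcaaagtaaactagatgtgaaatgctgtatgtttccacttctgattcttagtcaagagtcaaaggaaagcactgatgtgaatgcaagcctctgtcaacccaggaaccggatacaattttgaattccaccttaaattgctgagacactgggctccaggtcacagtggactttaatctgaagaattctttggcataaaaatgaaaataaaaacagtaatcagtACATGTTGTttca
The capitals in Ogn mark TATAAA on both strands, as overlapping matches, and GGAATG, the core element bound by TEAD factors. Those in Omd mark ACANNNTGT, the core palindrome of the glucocorticoid receptor element, 13 bases before the start. Of 32851 windows of this length in the RefSeq table, 12.4% held TATAAA, 12.6% GGAATG and 5.84% ACANNNTGT on either strand. Aspn held TATAAA as well. No window of these 7 genes held TGANTCA, the AP-1 element (6.75% of all windows), or GTCTAGAC, the palindrome bound by SMAD proteins (0.167%). Bgn, Fmod and Prelp held none of the 5 motifs, and GC content was 64.4% for Bgn, 51.2% for Fmod, 55.6% for Prelp, 42.0% for Ogn and 38.4% for Omd, against a median of 52.4% over all windows. A match describes letters and not a site in use.

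The libraries differed in ways that touch every gene. The median gene in MI vehicle library 3 stood 0.74 above its sham vehicle mean on the log2(TPM + 1) scale, against -0.07 to 0.25 in the other 11 libraries. That library also held T and B cell markers at 159.8 TPM summed, against at most 11.06 TPM elsewhere. Deviations from the sham vehicle mean correlated with transcript length in the 3 MI prednisone libraries (Spearman's rho -0.40, -0.41 and -0.27 across genes) and less so in the others (-0.12 to 0.24). Mitochondrially encoded transcripts took 21.6% to 42.0% of TPM. The 6 cardiomyocyte markers were present in every library and summed to 20920 to 34970 TPM. Values are therefore also given after median-ratio rescaling, which sets the typical gene equal between libraries, after a correction for transcript length, and without MI vehicle library 3. In bulk tissue, fewer cells of a type and less RNA per cell cannot be told apart.

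In sham hearts decorin dominated the family. Dcn, which coats collagen fibrils and binds transforming growth factor beta, stood at 295.1, 339.8 and 262.7 TPM in the sham vehicle libraries. Bgn, its closest relative, came next at 83.6, 103.7 and 79.1 TPM, followed by Ogn at 40.5, 46.3 and 43.0 TPM. TPM is scaled for length, so these levels can be set beside each other. Lum and Prelp followed at means of 21.7 TPM ± 4.17 and 18.3 TPM ± 2.81 (SD, n = 3) with overlapping ranges. Fmod, Podn and Aspn had means of 9.36, 8.73 and 7.62 TPM and also overlapped from one to the next. Omd was lowest at 1.01 TPM ± 0.249 (SD, n = 3). The same order and the same overlaps held in sham prednisone hearts.

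After infarction, the vehicle-treated hearts held more RNA of 8 of the 9 genes. In the comparison of MI vehicle with sham vehicle, 8 were called higher and none lower (limma on log2(TPM + 1), Benjamini-Hochberg adjusted p under 0.05). Of all genes tested 15.1% were called higher and 0.904% lower. The same 8 had groups that did not overlap, which held in this direction for 40.8% of all genes. The summed TPM of the 9 genes was 498.0 ± 66.2 in sham vehicle and 1169 ± 179.3 in MI vehicle (SD, n = 3 each).

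**Figure D1:**
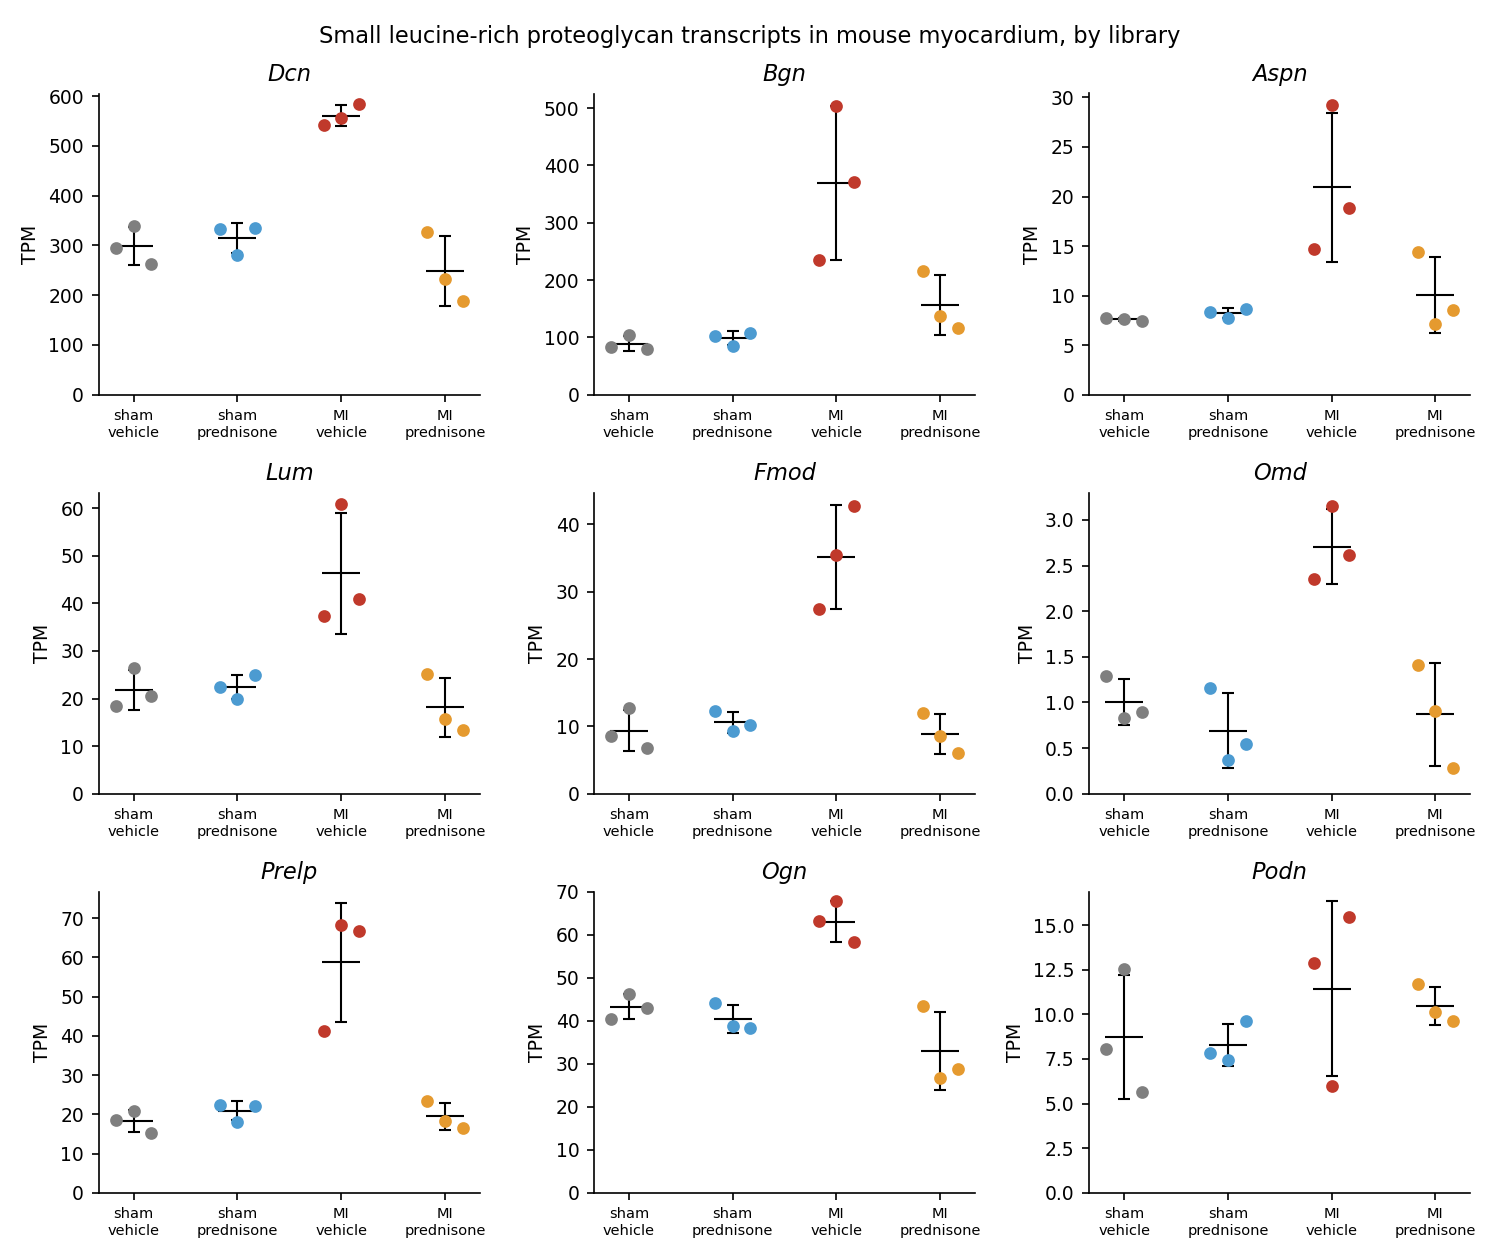
TPM of each of the 9 genes in each library (points), by group, with the group mean and SD (black bars, n = 3). In every panel but that of Podn, the 3 MI vehicle points lie above all sham vehicle and all MI prednisone points.

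Among the class I genes, Bgn moved most. It stood at 234.7, 503.2 and 371.5 TPM in MI vehicle against 79.1 to 103.7 TPM in sham vehicle, and the lowest infarcted heart was above the highest sham heart. The difference in log2(TPM + 1) was 1.99 ± 0.274 (SE, limma adjusted p = 0.00526), with a 95% interval of 1.38 to 2.59. Biglycan is also known as a ligand of Tlr2 and Tlr4 when released from the matrix. Dcn was at 542.2, 555.7 and 584.8 TPM, a tight group above the sham range of 262.7 to 339.8 TPM, and differed by 0.91 ± 0.175 (SE, limma adjusted p = 0.0128). Aspn, whose protein binds collagen but lacks the usual sugar chain of class I, was at 14.7, 29.2 and 18.8 TPM against 7.49 to 7.78 TPM, a difference of 1.29 ± 0.251 (SE, limma adjusted p = 0.0134).

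All 4 class II genes rose. Fmod, encoding fibromodulin, which takes part in collagen cross-linking, was at 27.4, 35.4 and 42.7 TPM in MI vehicle and at 8.56, 12.7 and 6.77 TPM in sham vehicle. Its difference was 1.82 ± 0.258 (SE, limma adjusted p = 0.00529). Prelp, whose basic amino terminus binds heparan sulfate, was at 41.4, 68.3 and 66.7 TPM against 18.6, 20.9 and 15.3 TPM, a difference of 1.61 ± 0.203 (SE, limma adjusted p = 0.00505). For both genes the infarcted hearts were clear of the sham hearts. Lum, encoding lumican, which limits lateral fibril growth, was at 37.2, 60.8 and 40.9 TPM against 18.3, 26.4 and 20.5 TPM and differed by 1.04 ± 0.239 (SE, limma adjusted p = 0.0213). Omd, first described in bone, was at 2.35, 3.16 and 2.62 TPM against 1.29, 0.829 and 0.899 TPM, and its difference of 0.89 ± 0.251 (SE, limma adjusted p = 0.0398) is understated on this scale because the levels are low.

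The class III and class V genes moved least. Ogn, encoding osteoglycin, was at 63.2, 67.9 and 58.3 TPM in MI vehicle and at 40.5 to 46.3 TPM in sham vehicle. The groups did not overlap, and the difference of 0.53 ± 0.160 (SE, limma adjusted p = 0.0461) lay 0.14 above the all-gene median. Podn, encoding podocan, was at 12.9, 6.00 and 15.5 TPM against 8.04, 12.5 and 5.64 TPM. Its groups overlapped and its difference of 0.33 ± 0.311 (SE, limma adjusted p = 0.403) became -0.07 after median-ratio rescaling and -0.10 after length correction.

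The median of all genes shifted by 0.39 in this comparison, and the median of the 9 genes by 1.04. After median-ratio rescaling the median of the 9 was 0.61, and 3 were called higher, Bgn (1.55, limma adjusted p = 0.0208), Fmod (1.40, 0.0174) and Prelp (1.18, 0.0174), against 3.72% of all genes called higher and 3.72% called lower. Length correction left the same 3 genes called, at 1.55, 1.40 and 1.19, where 3.04% of all genes were higher and 3.15% lower. Without MI vehicle library 3 the differences of Bgn, Fmod and Prelp were 1.95, 1.67 and 1.50, and 6 of the 9 genes were called, all but Omd, Ogn and Podn. Of all genes 7.34% were then called in either direction. Leaving out sham vehicle library 1 or sham vehicle library 3 left Bgn, Fmod and Prelp called, where 1.28% and 0.912% of all genes were called. A fit of these 2 groups alone called none of the 9, with 2 of 13158 genes called in all.

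**Figure D2:**
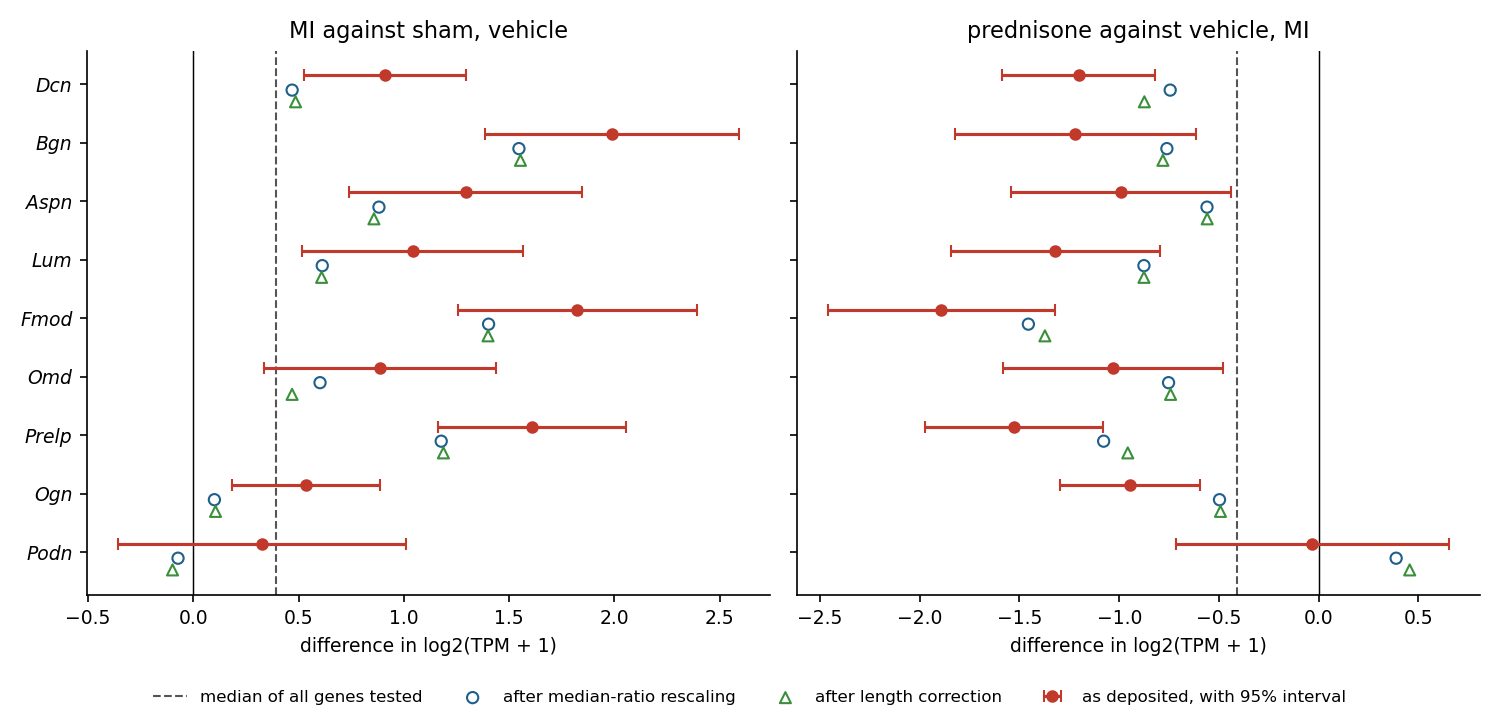
Difference in log2(TPM + 1) for each gene in MI against sham under vehicle (left) and in prednisone against vehicle after MI (right). Filled circles with 95% intervals are the values as deposited, open circles follow median-ratio rescaling, triangles follow length correction, and the dashed line is the median of all genes tested (0.39 and -0.41). Bgn, Fmod and Prelp stay farthest from zero on the left and Fmod and Prelp on the right.

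In infarcted hearts, 8 genes, all but Podn, were lower with prednisone. Against MI vehicle, 8 of the 9 were called lower and none higher, where 34.9% of all genes were called lower and 2.50% higher. Their groups did not overlap, as for 42.6% of all genes in this direction. The summed TPM of the 9 genes was 506.4 ± 148.8 (SD, n = 3) in MI prednisone. This comparison shares the MI vehicle mice with the one above, so that a high value in those mice raises both differences.

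Fmod had the largest difference of the 9. It was at 11.97, 8.63 and 6.08 TPM in MI prednisone against 27.4 to 42.7 TPM in MI vehicle, a difference of -1.89 ± 0.258 (SE, limma adjusted p = 0.000964). Prelp was at 23.4, 18.4 and 16.6 TPM against 41.4 to 68.3 TPM and differed by -1.53 ± 0.203 (SE, limma adjusted p = 0.000941). Lum, at 25.2, 15.8 and 13.5 TPM, differed by -1.32 ± 0.239 (SE, limma adjusted p = 0.00266). MI prednisone library 1 was the highest of its group for these and for all 9 genes. Omd was at 1.41, 0.905 and 0.286 TPM, below 1 TPM in 2 of 3 hearts, and differed by -1.03 ± 0.251 (SE, limma adjusted p = 0.00955).

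The pair of abundant class I genes dropped by similar amounts. Dcn was at 326.6, 232.8 and 188.4 TPM in MI prednisone, every heart below the lowest MI vehicle value of 542.2 TPM, and differed by -1.20 ± 0.175 (SE, limma adjusted p = 0.00119). Bgn was at 215.4, 137.2 and 116.2 TPM and differed by -1.22 ± 0.274 (SE, limma adjusted p = 0.00682). The highest Bgn value lay just under the lowest MI vehicle value of 234.7 TPM. Aspn was at 14.4, 7.19 and 8.55 TPM, its highest heart also close to the lowest MI vehicle heart at 14.7 TPM, and differed by -0.99 ± 0.251 (SE, limma adjusted p = 0.0115).

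Ogn was at 43.4, 26.7 and 28.8 TPM, against 58.3 to 67.9 TPM in MI vehicle, a difference of -0.95 ± 0.160 (SE, limma adjusted p = 0.00201). Podn was at 11.7, 10.1 and 9.60 TPM, inside the MI vehicle range, and its difference of -0.03 ± 0.311 (SE, limma adjusted p = 0.947) became 0.39 after median-ratio rescaling and 0.46 after length correction. Podn is thus the gene of the 9 that passed the test in no comparison.

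The median of all genes was -0.41 here and that of the 9 genes -1.20. After median-ratio rescaling the median of the 9 was -0.75 and 4 were called lower, Fmod (-1.46, limma adjusted p = 0.00186), Prelp (-1.08, 0.00244), Lum (-0.88, 0.0315) and Dcn (-0.74, 0.0181), against 14.2% of all genes called lower and 14.6% called higher. Length correction left the same 4 called, with 7.68% of all genes lower and 8.72% higher. The fit of these 2 groups alone called 5, those 4 and Ogn, with 6.14% of all genes called. All 8 stayed called whichever mouse was left out, where 24.7% to 47.7% of all genes were called.

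In sham hearts the same dosing was not followed by a detectable difference in any of the 9. None was called and none had an unadjusted limma p under 0.05, where 0.114% of all genes were called. The differences ran from -0.27 (Omd) to 0.19 (Fmod), and their 95% intervals lay between -0.82 and 0.76, so that changes up to about that size could not be told from none. Dcn was at 332.2, 281.0 and 334.2 TPM in sham prednisone and 262.7 to 339.8 TPM in sham vehicle. Bgn was at 103.0, 84.9 and 108.2 TPM against 79.1 to 103.7 TPM. The groups overlapped for all 9 genes, where 15.6% of all genes had groups that did not overlap in the higher direction and 2.58% in the lower.

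The difference between the prednisone effects in infarcted and sham hearts was tested as an interaction. It was called for 6 of the 9 genes, all lower, where 20.7% of all genes were called lower and 0.540% higher. Fmod had the largest value at -2.09 ± 0.365 (SE, limma adjusted p = 0.00746), followed by Prelp at -1.72 ± 0.287 (SE, limma adjusted p = 0.00673). Lum (-1.37, limma adjusted p = 0.0195), Bgn (-1.37, 0.0312), Dcn (-1.28, 0.00975) and Ogn (-0.85, 0.0255) were the others. Aspn (-1.09, limma adjusted p = 0.05004), Omd (-0.76, 0.137) and Podn (-0.02, 0.979) were not called. The all-gene median was -0.48, and after median-ratio rescaling Fmod (-1.57, limma adjusted p = 0.0202) and Prelp (-1.18, 0.0226) were called, against 4.93% of all genes lower and 5.12% higher. Length correction left Fmod alone (-1.48, limma adjusted p = 0.0387), with 1.14% of genes lower and 0.876% higher. Leaving out sham vehicle library 1, sham vehicle library 3 or sham prednisone library 3 left 3 called each, Dcn, Fmod and Prelp. Of all genes 8.44%, 9.3% and 10.2% were called in these fits.

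Infarcted hearts on prednisone were then set beside sham hearts. Against sham prednisone no gene of the 9 was called, with 1 at an unadjusted limma p under 0.05, where 16.8% of all genes were called, 2.73% higher and 14.1% lower. Median-ratio rescaling changed that split to 11.7% and 14.3% and called none of the 9. Against sham vehicle none was called either, with 2 at an unadjusted limma p under 0.05, where 3.59% of all genes were called higher and 8.41% lower, or 10.4% and 12.3% after the rescaling with none of the 9 called. Bgn was the gene that lay outside both sham ranges. Its MI prednisone values of 116.2 to 215.4 TPM did not overlap sham vehicle (79.1 to 103.7 TPM) or sham prednisone (84.9 to 108.2 TPM), as held in the higher direction for 17.0% and 12.9% of all genes. The Bgn difference was 0.77 ± 0.274 (SE, limma adjusted p = 0.0934) from sham vehicle and 0.62 ± 0.274 (SE, limma adjusted p = 0.156) from sham prednisone. The first was called without MI vehicle library 1 or without MI prednisone library 3, where 13.9% and 17.4% of all genes were called. Ogn lay on the other side, -0.41 ± 0.160 from sham vehicle (SE, limma adjusted p = 0.119), and was called lower without MI prednisone library 1, when Dcn and Ogn were also called lower against sham prednisone. Of all genes 3.68% and 7.81% were called in these comparisons, in that order. Fmod and Prelp were nearest to sham vehicle, at -0.07 and 0.08 with 95% intervals of -0.64 to 0.50 and -0.36 to 0.53.

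The make-up of the family pool changed with infarction. Dcn took 59.5% to 61.2% of the summed TPM of the 9 genes in sham vehicle and 60.0% to 60.1% in sham prednisone, against 41.8% to 55.6% in MI vehicle and 48.5% to 50.9% in MI prednisone. Bgn took 17.4% to 18.2% and 18.2% to 19.4% in the sham groups, and 24.0% to 37.8% and 30.0% to 32.0% in the MI groups. These shares use values from 1 library only and do not depend on how libraries are scaled. The Ogn share was 8.11% to 9.73% in sham vehicle and 4.85% to 6.48% in MI vehicle. Under prednisone it was 6.88% to 8.31% in sham and 5.82% to 7.43% after MI, overlapping ranges.

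**Figure D3:**
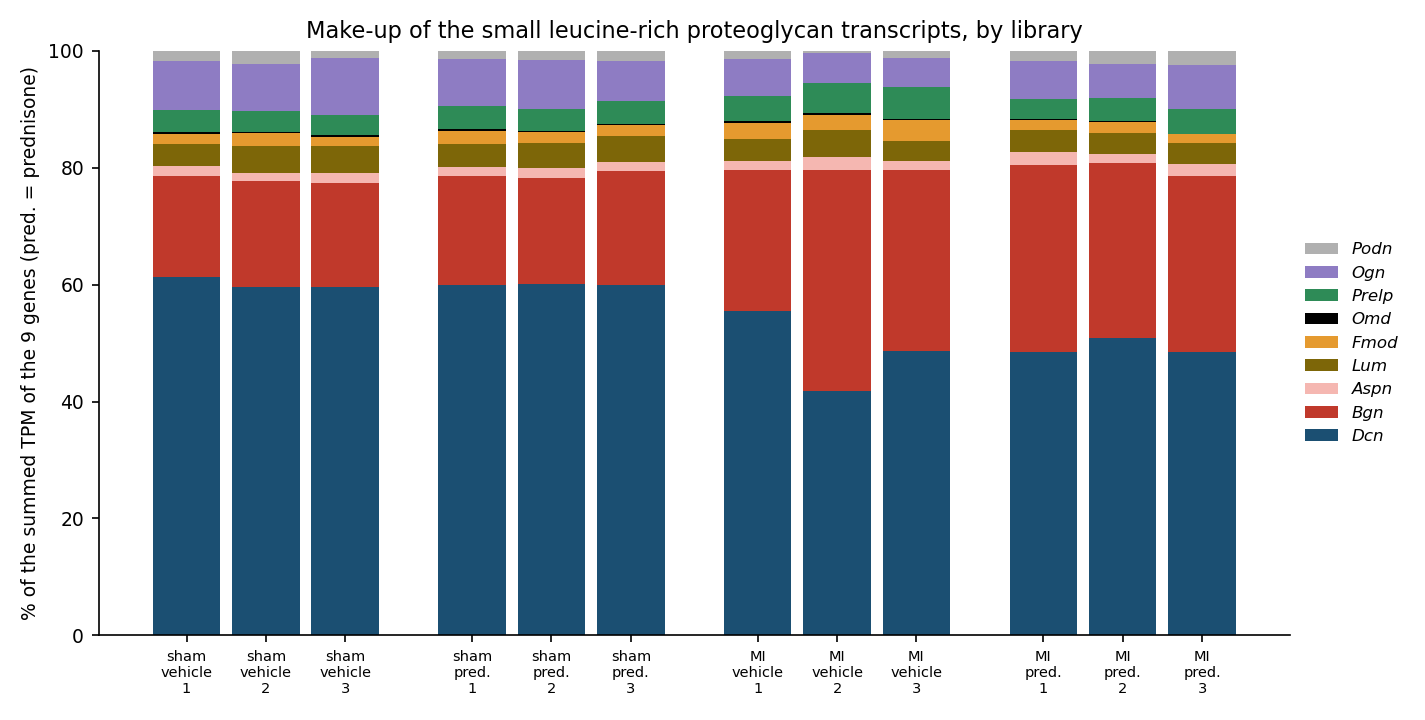
Percent of the summed TPM of the 9 genes taken by each gene, 1 bar a library, in 4 groups of 3. Dcn (dark blue) takes about 60% in all 6 sham libraries and less in all 6 MI libraries, and Bgn (red) takes more in all 6 MI libraries.

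Ratios to Dcn within a library show which genes moved apart. They were chosen after the values were seen, and with 3 mice a group an exact two-sided p cannot fall below 0.1, so they are given without a test. The ratio of Bgn to Dcn was 0.283 to 0.305 in sham vehicle and 0.302 to 0.324 in sham prednisone. It was 0.433, 0.906 and 0.635 in the MI vehicle libraries and 0.589 to 0.660 in the MI prednisone libraries. Every infarcted heart was thus above every sham heart, on vehicle or prednisone and with or without MI vehicle library 3. The length correction kept Bgn and Dcn as far apart in MI prednisone, at 0.77 and -0.39 from sham vehicle.

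Fmod followed another pattern. As deposited, its ratio to Dcn was 0.0258 to 0.0375 in sham vehicle, 0.0505 to 0.0731 in MI vehicle and 0.0323 to 0.0371 in MI prednisone, inside the sham vehicle range. In MI prednisone, Fmod and Dcn differed from sham vehicle by -0.07 and -0.29 as deposited. After length correction these differences were 0.03 and -0.39, farther apart, so the place of this ratio within the sham range holds only for values as deposited. Prelp to Dcn was 0.0584 to 0.0629, 0.0763 to 0.123 and 0.0715 to 0.0881 in these 3 groups, with MI prednisone above sham vehicle and overlapping MI vehicle. Lum to Dcn overlapped across all groups (0.0621 to 0.0779 in sham vehicle, 0.0687 to 0.1095 in MI vehicle). Ogn to Dcn was 0.136 to 0.164 in sham vehicle and lower, 0.0997 to 0.122, in MI vehicle. It was 0.1146 to 0.1383 in sham prednisone, overlapping MI vehicle, and 0.1145 to 0.1531 in MI prednisone, overlapping every other group.

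**Figure D4:**
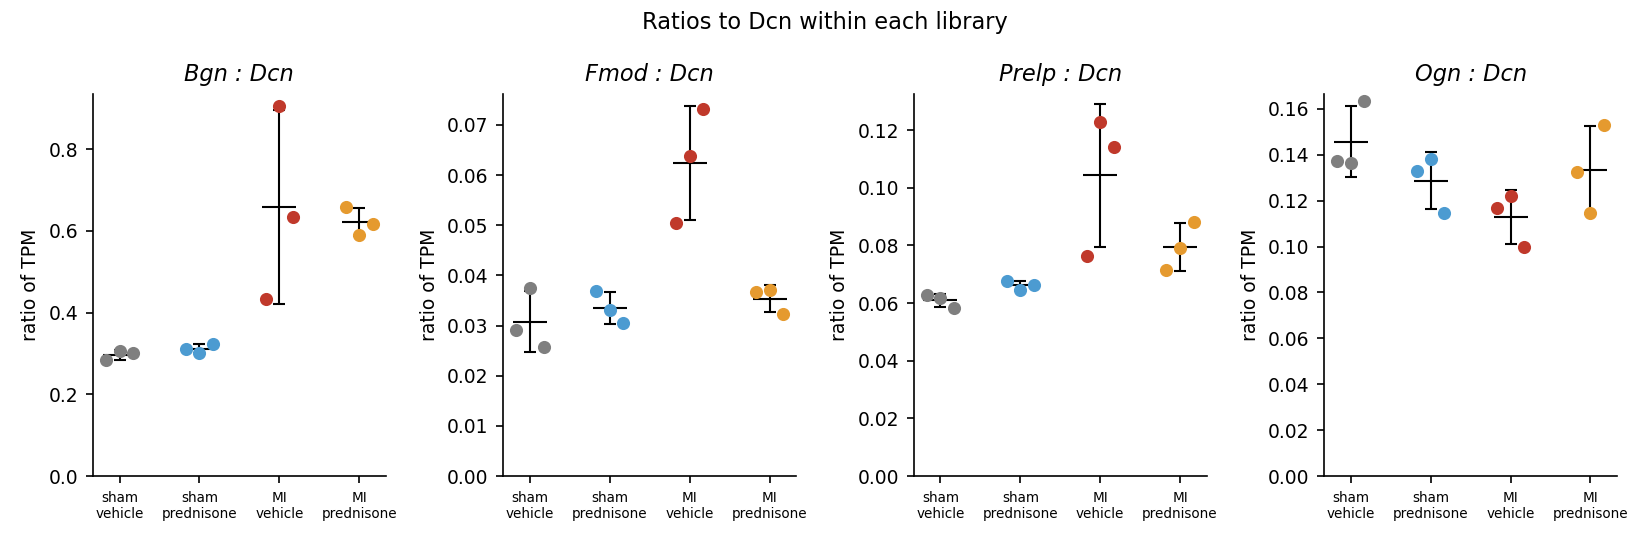
Ratio of the TPM of Bgn, Fmod, Prelp and Ogn to that of Dcn in each library (points), by group, with mean and SD (n = 3). In these values as deposited, Bgn to Dcn lies above the sham values in both MI groups, whereas Fmod to Dcn lies above them in MI vehicle and within them in MI prednisone.

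The pair was also set against collagen. Col1a1, a chain of the main scar collagen that was chosen after its values were seen, stood at 14.2 TPM in sham vehicle and 57.9 TPM in MI vehicle on average, and the ratio of Dcn to Col1a1 was 20.1 to 22.2 in sham vehicle, 6.21 to 13.5 in MI vehicle and 13.1 to 15.8 in MI prednisone. The ratio of Bgn to Col1a1 was 6.00 to 6.70 in sham vehicle and 5.62 to 8.43 in MI vehicle, overlapping ranges, and 8.06 to 10.4 in MI prednisone. Between sham and MI vehicle hearts the ranges of the Bgn ratio overlapped and those of the Dcn ratio did not, which was not tested. Under prednisone both ratios had ranges that did not overlap, with Dcn to Col1a1 at 20.7 to 21.0 in sham and lower after MI, and Bgn to Col1a1 at 6.25 to 6.79 in sham and higher after MI. These ratios were not corrected for transcript length, with which values in the MI prednisone libraries varied.

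Dcn was expressed from a pair of transcripts that differ in their start. ENSMUST00000105287 begins at position 97479609 of chromosome 10 and ENSMUST00000163448 begins 2758 bases downstream; both have 8 exons, the same end and a length of 1758 bases. The upstream transcript took 68.2% to 73.3% of Dcn TPM in sham vehicle, 68.7% to 71.8% in sham prednisone and 66.7% to 70.7% in MI prednisone. In MI vehicle it took 75.4%, 79.3% and 77.5%, above all other libraries. It was at 408.7, 440.5 and 453.0 TPM in MI vehicle against 202.9, 249.0 and 179.1 TPM in sham vehicle, a difference of 1.05 ± 0.195 (SE; limma over transcripts, adjusted p = 0.02565). The downstream transcript was at 131.9, 113.7 and 131.2 TPM against 82.7 to 90.5 TPM, a difference of 0.51 ± 0.156 (SE; limma over transcripts, adjusted p = 0.0929). Both were called lower with prednisone after MI, by limma over transcripts, at -1.37 (adjusted p = 0.000755) and -0.73 (adjusted p = 0.00559). Of 27769 transcripts tested, 2.84% were called in either direction after MI under vehicle and 33.0% with prednisone after MI. The difference between the transcripts was not tested, and shared sequence makes the split an estimate.

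In Bgn 1 transcript, ENSMUST00000033741, took 94.6% to 98.8% of the gene's TPM in every library, and the single transcripts of Lum, Omd and Ogn took all of theirs. The leading transcripts of Fmod, Prelp and Aspn took at least 98.5%, 96.8% and 81.6%. Podn was split over several, its leading transcript ENSMUST00000106708 taking 23.2% to 63.0%, so that its transcript levels are the least certain of the 9.

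**Figure D5:**
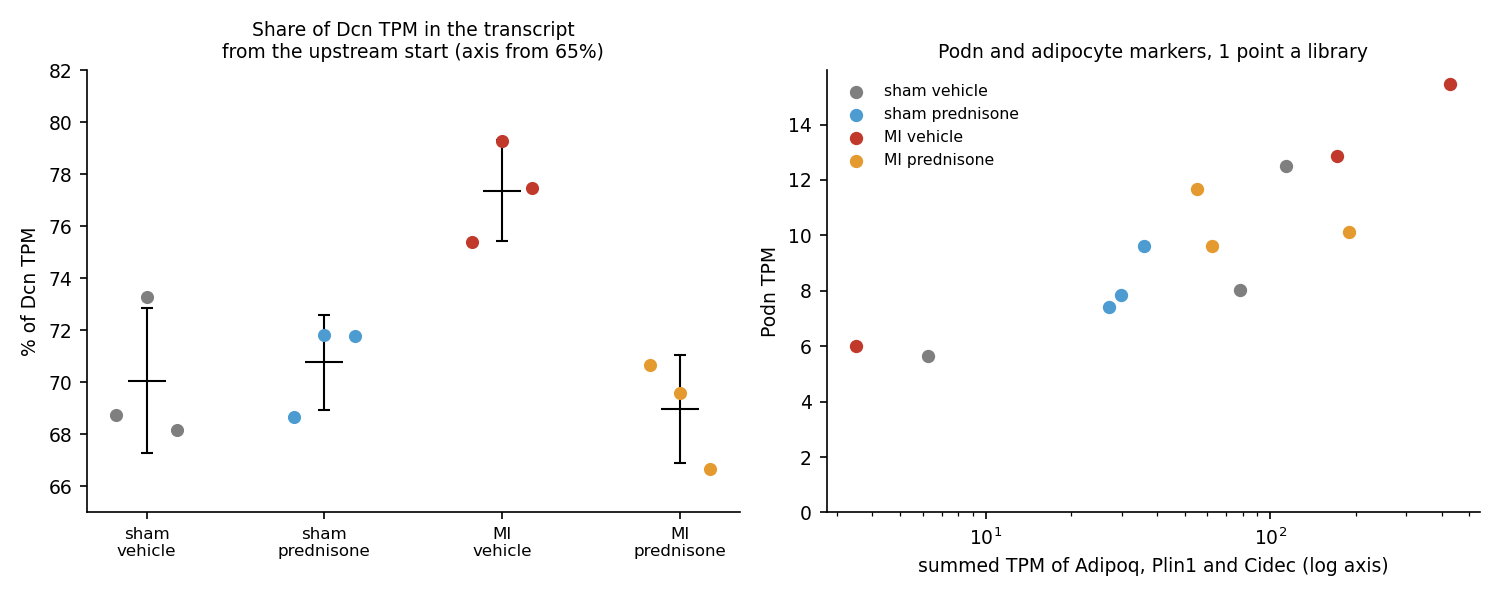
Left, percent of Dcn TPM in the upstream transcript in each library (points), by group, with mean and SD (n = 3); the axis does not start at 0, and the 3 MI vehicle points lie highest. Right, Podn TPM against the summed TPM of Adipoq, Plin1 and Cidec, markers of fat cells, 1 point a library on a log horizontal axis; Podn is lowest in the 2 libraries with the least fat cell RNA.

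Podn was lowest where fat cell RNA was lowest. The summed TPM of the adipocyte markers Adipoq, Plin1 and Cidec ran from 3.51 in MI vehicle library 2, where Podn was 6.00 TPM, to 427.9 in MI vehicle library 3, where Podn was highest at 15.5 TPM. In sham vehicle library 3 the markers summed to 6.27 TPM and Podn was lowest at 5.64 TPM. Over the 12 libraries the genes most like Podn were Igkc (Pearson's r = 0.918), Cidec (0.903) and Adipoq (0.902) among 8108 genes ranked, where libraries share dissection and depth and r is a description. The part of fat tissue in the Podn values was not tested.

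The other genes moved closely together across libraries. On the log2(TPM + 1) scale over the 12 libraries, Pearson's r with Dcn was 0.960 for Fmod, 0.950 for Lum, 0.932 for Ogn and 0.919 for Prelp, and 0.770 for Bgn. Bgn was most like Aspn among the 9 (0.961). Outside the family the closest gene to Bgn was Emp1 (0.995), to Dcn Tmem98 (0.986), to Fmod Timp2 (0.988), to Aspn Lhfp (0.984), to Prelp Fbln5 (0.983), to Lum Adgre1 (0.975), to Ogn Bicc1 (0.941) and to Omd Ptgis (0.936). These values carry the group differences and library scaling that all the genes share.

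Of 9 further family genes, 4 passed the filter on low values. Ecm2, the neighbor of Aspn, was at 6.57, 6.47 and 6.95 TPM in sham vehicle, 12.01, 12.4 and 12.1 TPM in MI vehicle, and 7.98, 5.50 and 5.76 TPM in MI prednisone. It was called higher after MI (0.78 ± 0.131, SE, limma adjusted p = 0.00879) and lower with prednisone (-0.84 ± 0.131, SE, limma adjusted p = 0.00149), and in neither after median-ratio rescaling. Chad, Chadl and Tsku were called in neither comparison as deposited. After rescaling Chadl, near 1 TPM, was called higher with prednisone after MI (0.52, limma adjusted p = 0.0475), as were 14.6% of all genes. Kera, Epyc and Optc, which share clusters with Dcn, Lum, Fmod and Prelp, stayed below 1 TPM in every library, at most 0.0547, 0.816 and 0.439 TPM. The clusters thus held both genes that rose and genes near 0.

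Enzymes that build the sugar chains were read from lists of pathway genes. Counts of listed genes stand beside all-gene shares of 15.1% called higher after MI and 34.9% called lower with prednisone, or 3.72% and 14.2% after median-ratio rescaling. With prednisone 2.50% of all genes were called higher, or 14.6% after rescaling. Of 16 genes for chondroitin and dermatan sulfate 12 were tested, 7 were called higher after MI and 11 lower with prednisone, with medians of 0.73 and -0.73 beside all-gene medians of 0.39 and -0.41. After median-ratio rescaling 3 and 5 were called. Chst12, a chondroitin sulfotransferase, had the largest rise among listed genes averaging at least 1 TPM (1.07 ± 0.254, SE, limma adjusted p = 0.0238), and Dse, the epimerase that makes dermatan sulfate, the largest fall (-1.18 ± 0.220, SE, limma adjusted p = 0.00309). Of 6 genes for the linker on the core protein 5 were tested, none was called after MI and Fam20b, the xylose kinase, was called lower with prednisone (-0.76, limma adjusted p = 0.00206) but not after rescaling (-0.33, limma adjusted p = 0.137). After rescaling 1 linker gene was called higher with prednisone, B3gat3 (0.60, limma adjusted p = 0.0019), named after its values were seen. Of 7 keratan sulfate genes 4 were tested, with B4galt1 higher after MI (0.55, limma adjusted p = 0.0213) and 2 lower with prednisone, B3gnt2 the most (-1.71, limma adjusted p = 0.00249). After rescaling B4galt1 was at 0.12 (limma adjusted p = 0.552), and none of the 4 was called higher and 1 lower.

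Collagens and cross-linking enzymes, which the family works beside, were counted in the same way. Of 12 collagen genes 11 were tested, 10 were called higher after MI and 9 lower with prednisone, and 8 were higher after MI, and 7 lower and 1 higher with prednisone, after median-ratio rescaling. Col1a2 led both ways, with a difference of 1.91 (adjusted p = 0.00526 by limma) after MI and -1.73 (adjusted p = 0.00146 by limma) with prednisone, each with an SE of 0.265. All 4 of the lysyl oxidase genes tested (of 5) were higher after MI and 3 lower with prednisone, led by Lox at 2.17 and -1.73 (limma adjusted p = 0.00675 and 0.00355), or 3 and 3 after rescaling.

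Among 23 ligands and receptors that the family binds, 21 were tested, 12 were called higher after MI, and 11 were lower and 1 higher with prednisone. After median-ratio rescaling 5 were higher after MI, and 6 lower and 1 higher with prednisone, beside the all-gene shares given for the enzymes. Ctgf, a matricellular growth factor, rose most after MI (2.11 ± 0.299, SE, limma adjusted p = 0.00526). Tgfbr2, the type II receptor for transforming growth factor beta, fell most with prednisone (-1.66 ± 0.194, SE, limma adjusted p = 0.000593), and Lrp1, an endocytic receptor, was the one higher (0.48, limma adjusted p = 0.0452). Of 13 proteases and helpers 9 were tested, 6 were higher after MI and 4 lower with prednisone, Mmp3 (1.46, limma adjusted p = 0.0149) and Mmp14 (-1.21, limma adjusted p = 0.00254) most. After rescaling 2 were higher and 2 lower, and Mmp3 was not called (1.09, limma adjusted p = 0.0505). Of 10 other matrix proteoglycans 7 were tested, 4 were higher after MI, Prg4 most (1.22, limma adjusted p = 0.0172), and none after rescaling (Prg4 0.83, limma adjusted p = 0.0969). In that list 1 was called with prednisone, Hspg2, encoding perlecan, which was higher (1.12 ± 0.115, SE, limma adjusted p = 0.000394). After rescaling 2 were called higher with prednisone and none lower. Of all genes 2.50% were called higher with prednisone, or 14.6% after rescaling. Hspg2 averaged 45.0 TPM in MI vehicle and 97.9 TPM in MI prednisone, the opposite direction to the small proteoglycans.

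Markers of the cells that make these proteins were read beside the same all-gene shares, 15.1% higher after MI and 34.9% lower with prednisone. After rescaling 3.72% of all genes were higher after MI, and 14.2% were lower and 14.6% higher with prednisone. The 10 fibroblast markers summed to 677.3 to 852.4 TPM in sham vehicle, 718.1 to 867.4 in sham prednisone, 1099 to 1296 in MI vehicle and 634.1 to 1022 in MI prednisone, none at 0 in a whole group. Of these 6 were called higher after MI and 4 lower with prednisone, with medians of 0.58 and -0.57. After median-ratio rescaling 2 were higher after MI (median 0.17), and 2 lower and 1 higher with prednisone (median -0.14). The 7 markers of activated fibroblasts summed to 60.3 to 73.9 TPM in sham vehicle, 133.2 to 290.8 TPM in MI vehicle and 101.9 to 172.7 TPM in MI prednisone, overlapping MI vehicle, with 6 called higher and 4 lower. After rescaling 5 were higher and 1 lower, with medians of 1.72 and -0.17. Dpt, 1 of the 10 fibroblast markers, was chosen after its values were seen. In these bulk values the ratio of Dcn to Dpt was 4.13 to 4.46 in sham vehicle, 4.59 to 5.58 in MI vehicle and 2.70 to 3.56 in MI prednisone. The ratio of Bgn to Dpt was 1.17 to 1.34, 1.99 to 5.05 and 1.59 to 2.19. Neither ratio was corrected for transcript length, and no other fibroblast marker was used in this way.

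For other cell types the counts are again set beside 15.1% of all genes higher after MI and 34.9% lower with prednisone. In the opposite directions 0.904% were lower after MI and 2.50% higher with prednisone. After rescaling 3.72% were higher and 3.72% lower after MI, and 14.2% were lower and 14.6% higher with prednisone. The 7 macrophage markers summed to 126.8 to 160.1 TPM in sham vehicle, 238.8 to 366.1 in MI vehicle and 130.9 to 253.7 in MI prednisone, with 6 called higher and 5 lower, or 2 and 3 after rescaling. The 5 epicardial and mesothelial markers summed to 26.8 to 62.9, 81.0 to 155.4 and 24.0 to 79.0 TPM, with 3 higher and 4 lower, or 0 and 4 after rescaling. Cardiomyocyte markers summed to 29260 to 30700, 20920 to 25960 and 30930 to 34010 TPM, with 2 of 6 called lower after MI and 3 higher with prednisone, or 2 and 4 after rescaling. The 4 atrial markers summed to 845.2 to 2487, 2802 to 4106 and 4335 to 6173 TPM, with 1 called higher after MI and 3 higher with prednisone, also after rescaling. The sum and the median went opposite ways after MI. The median change of the 4 was -0.78 after MI, or -1.21 after rescaling, beside an all-gene median of 0.39. With prednisone after MI the median change was 2.005. The part of cell make-up and of the atrial share in the differences of the 9 genes was not tested.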

How the data were processed

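RNA from the myocardium of 12 mice, in 4 groups of 3, was sequenced from stranded mRNA libraries prepared after Trizol and column purification, per the labels' protocols. The submitters' processing notes name Trimmomatic, HISAT2 and kallisto and the mm10 build, with no role or version given. The authors deposited 1 matrix of transcript TPM in which each library totals 1000000. TPM keeps no read counts, so depth is unknown and no counting interval is given. Its transcript identifiers matched GENCODE M21 on GRCm38 for 94.7% of rows, or 98.6% ignoring the version.

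TPM of all transcripts of a symbol was added up. The 13158 symbols that reached 1 TPM in 3 or more of the 12 libraries were tested as log2(TPM + 1), with a pseudocount of 1, in 1 limma 3.58.1 model over the 4 groups in R 4.3.3 (mean-variance trend, Benjamini-Hochberg adjustment over all genes, threshold 0.05). The design had allowed for counts or normalized values, and the test for normalized values was applied. Each library is a separate mouse. The p-values rest on a spread among mice pooled over the 4 groups of 3 and moderated across genes, not on the groups compared alone. The fit was tested on simulated data.

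Alternatives were median-ratio rescaling, a loess correction for transcript length (span 0.5, lengths known for 99.7% of genes tested), no filter, a pseudocount of 0.1, no trend, the most abundant transcript alone, a replicate block with and without the length correction, only the groups compared, no mitochondrially encoded rows, and leaving out each mouse. The genes described, the pathway and marker lists and the named-gene rule were chosen with earlier results of these data known. By that rule all 9 genes are named, with the called gene of largest change in each direction per pathway list averaging at least 1 TPM, and the genes most correlated with each of the 9 among those averaging at least 5 TPM. Promoter windows come from RefSeq on GRCm38.p6.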

Additional observations from a re-analysis of the deposited data

Results flagged for a closer look

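The effect of prednisone differed between infarcted and sham hearts for 6 of the 9 genes, as tested by the limma interaction over all genes. In that test 20.7% of all genes were called lower and 0.540% higher, with an all-gene median of -0.48. The difference of the 2 effects, on the log2(TPM + 1) scale, was -2.09 for Fmod, -1.72 for Prelp, -1.37 for Lum, -1.37 for Bgn, -1.28 for Dcn and -0.85 for Ogn. In sham hearts the same genes differed by -0.10 (Ogn) to 0.19 (Fmod) between prednisone and vehicle, and in infarcted hearts by -0.95 (Ogn) to -1.89 (Fmod). After median-ratio rescaling Fmod (-1.57) and Prelp (-1.18) passed the test, and after length correction Fmod (-1.48). Of all genes 4.93% and 1.14% were called lower under these settings. The part of library scale and of transcript length in the other 4 was not tested beyond these values.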

How the results depend on the processing

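Depth is unknown for TPM, 3 mice a group limit every comparison, and the libraries differ in the typical gene and in the dependence on length, so that counts of calls depend on scaling. Of the 9 genes, 8 were called in MI against sham under vehicle. This count was 3 after median-ratio rescaling, 3 after length correction, 0 in the fit of only the groups compared, and 3 with median-ratio rescaling without MI vehicle library 3, an alternative chosen after seeing the data. Of all genes 16.0% were called in either direction as deposited, and 7.44%, 6.19%, 0.0152% and 4.56% under these settings. For prednisone against vehicle after MI the 8 became 4 after rescaling, 4 after length correction and 5 with only the groups compared. The all-gene share went from 37.4% to 28.8%, 16.4% and 6.14%. The 6 interaction calls became 2 after rescaling, 1 after length correction and 3 with rescaling without MI vehicle library 3. There the all-gene share went from 21.3% to 10.1%, 2.01% and 12.2%. Without mitochondrially encoded rows 1 of the 9 genes was called in MI against sham under prednisone, beside 25.1% of all genes. Under the same setting 2 were called in MI prednisone against sham vehicle, beside 22.6% of all genes. For the latter comparison, rescaling without MI vehicle library 3 called 1, Bgn, beside 31.5% of all genes. With all libraries and rows as deposited these counts of the 9 genes were 0. The cause of these shifts was not tested.

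Directions reversed only for differences that were not called. Podn in MI against sham under vehicle was -0.073 after rescaling, -0.10 after length correction and -0.13 with rescaling without MI vehicle library 3, and with prednisone after MI it was 0.39, 0.46 and 0.45 under these settings. Its interaction was 0.48, 0.55 and 0.54 under them. From its most abundant transcript alone Podn was -0.10 in MI against sham under prednisone and 0.64 with prednisone in sham. Prelp in MI against sham under prednisone was 0.13 after length correction, and from sham vehicle to MI prednisone it was -0.14 without mitochondrially encoded rows. With prednisone in sham, Dcn was -0.009 after rescaling with or without MI vehicle library 3, and Lum was -0.0335 under both, -0.0168 without mitochondrially encoded rows and -0.0152 after length correction. Fmod from sham vehicle to MI prednisone was 0.027 after length correction.

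Leaving out 1 mouse at a time gave 3 to 8 calls in MI against sham under vehicle (3 without sham vehicle library 1 or 3) and 8 to 8 with prednisone after MI. It gave 3 to 7 for the interaction (3 without sham vehicle library 1, sham vehicle library 3 or sham prednisone library 3), 0 to 2 in MI against sham under prednisone (2 without MI prednisone library 1) and 0 to 0 with prednisone in sham. MI prednisone against sham vehicle gave 0 to 1, with 1 without MI vehicle library 1, MI prednisone library 1 or MI prednisone library 3. Across these fits the share of all genes called ran from 0.912% to 42.8% in MI against sham under vehicle. With prednisone after MI it was 24.7% to 47.7%, and for the interaction 8.44% to 34.4%. In MI against sham under prednisone it was 7.81% to 30.2%, and with prednisone in sham 0.0304% to 0.137%. For MI prednisone against sham vehicle it was 3.68% to 25.8%. Ranges that crossed 0 were -0.062 to 0.39 for Aspn and -0.084 to 0.37 for Omd in MI against sham under prednisone, and -0.40 to 0.22 for Podn with prednisone after MI. With prednisone in sham they were -0.0086 to 0.18 for Dcn, -0.056 to 0.20 for Lum and -0.26 to 0.26 for Podn, and for the Podn interaction -0.39 to 0.23. From sham vehicle to MI prednisone they were -0.29 to 0.15 for Fmod, -0.35 to 0.10 for Omd and -0.051 to 0.18 for Prelp.

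Whether the replicate numbers in the labels pair the mice is not known. Deviations of same-numbered libraries correlated at -0.58 to 0.28, which cannot decide it, because library scale enters every deviation. With the replicate number as a block 6, 8 and 5 of the 9 genes were called in MI against sham under vehicle, with prednisone after MI and in the interaction. Of all genes 8.03%, 33.7% and 17.9% were called there. In the other comparisons 0 of the 9 were called, beside 0.0532% to 14.4% of all genes. The replicate block with length correction called 2, 3 and 0 in MI against sham under vehicle, with prednisone after MI and in the interaction. Of all genes 0.579%, 11.1% and 0.792% were called there. Under this setting Podn was -0.10, 0.46 and 0.55, Prelp 0.13 in MI against sham under prednisone, Lum -0.0152 with prednisone in sham and Fmod 0.027 from sham vehicle to MI prednisone.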

Other observations

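Minor transcripts of Bgn and Podn gave values that the gene sums do not show. The Bgn transcript ENSMUST00000133394, with 6 exons and annotated as a processed transcript, averaged 0.872 TPM in sham vehicle, 1.49 in sham prednisone, 5.32 in MI vehicle and 0.433 in MI prednisone. It took 1.21% to 2.13% of Bgn TPM in MI vehicle and 0.175% to 0.470% in MI prednisone. It was called higher after MI (1.78, adjusted p = 0.00896 by limma over transcripts), lower with prednisone after MI (-2.13, adjusted p = 0.000175) and lower in MI than in sham under prednisone (-0.80, adjusted p = 0.0292). Of all transcripts tested 2.84%, 33.0% and 22.3% were called in these comparisons. The main Bgn transcript differed by 0.62 in the last comparison (adjusted p = 0.145 by limma over transcripts). For Podn the transcript ENSMUST00000044248 was near 0 in 2 of the 3 MI vehicle libraries, with an interaction of 2.50 (adjusted p = 0.0416 by limma over transcripts), where 18.7% of transcripts were called. These transcripts were chosen after their values were seen.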
